A study of Mus musculus with 3 samples.

Results

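Peroxisome proliferator-activated receptors (PPARs) and the PGC-1 coactivators that work with them were examined for binding of the forkhead factor Foxp4 and for H3K27ac, the acetylated lysine 27 of histone H3 a mark of active regulatory DNA, in beige adipocytes of the mouse. The set consisted of 6 genes of 21887 protein-coding genes: the receptor genes Pparg (Entrez 19016), Ppara (19013) and Ppard (19015), and the coactivator genes Ppargc1a (19017), Ppargc1b (170826) and Pprc1 (226169). A peak belonged to a gene when the deposited gene name, that of the nearest RefSeq transcription start site (TSS), matched the symbol. This gave 7 of 16937 Foxp4 peaks and 13 of 17564 H3K27ac peaks.

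The study made a Foxp4 ChIP library, an H3K27ac ChIP library and an input DNA library, 1 of each, from adipocytes of the C57BL/6 strain that had been grown out of the stromal-vascular fraction of inguinal white fat. The labels give H3K27ac as the target of its library, but the extraction text, the same for all 3 libraries, names a Foxp4 antibody and no H3K27ac antibody. Every library carries the same culture description. Cells were expanded for 3 days in 20% serum and then to confluence, induced for 48 h in 10% serum with troglitazone (5 µM), insulin (5 µg/ml), the thyroid hormone T3 (50 nM), dexamethasone (1 µM) and isobutylmethylxanthine (0.5 mM), and held for 6 more days with insulin, T3 and troglitazone. Troglitazone is itself a ligand of PPARγ, so that receptor was under agonist in both ChIP libraries, and no library without agonist was analysed here. The sources used here do not state how many animals were taken or whether they were pooled, the cultures come from a mixed stromal fraction, and the input was not used here.

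PPARs are nuclear receptors that bind DNA as heterodimers with RXR and switch on genes of lipid metabolism when fatty acids or drugs occupy them. PPARγ drives fat cell formation, and its isoform PPARγ2, made from a separate downstream promoter, is largely restricted to fat cells. PPARα and PPARδ favour fatty acid oxidation. PGC-1α (Ppargc1a), PGC-1β (Ppargc1b) and PRC (Pprc1) bind no DNA themselves and raise the activity of receptors and other factors, above all on mitochondrial genes, and PGC-1α is induced by cold in thermogenic fat.

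Promoter windows of the receptor genes are shown here because both lists separated the starts of Pparg, and because Ppard and Ppara differed in acetylation. Each window covers 250 bp before to 50 bp after the TSS, read 5′ to 3′ on the plus strand of GRCm38.p6 (the assembly of mm10) from RefSeq. Capitals mark the forkhead core TGTTTA or the nuclear receptor site AGGTCA.
Pparg, PPARγ2 start, chr6:115421816-115422115: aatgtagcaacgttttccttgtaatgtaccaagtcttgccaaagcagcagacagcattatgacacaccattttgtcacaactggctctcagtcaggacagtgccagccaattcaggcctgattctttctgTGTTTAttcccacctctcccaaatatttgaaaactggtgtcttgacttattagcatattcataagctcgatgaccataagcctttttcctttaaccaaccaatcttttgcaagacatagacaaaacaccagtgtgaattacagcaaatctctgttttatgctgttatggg
Pparg, most upstream tabulated start, chr6:115360894-115361193: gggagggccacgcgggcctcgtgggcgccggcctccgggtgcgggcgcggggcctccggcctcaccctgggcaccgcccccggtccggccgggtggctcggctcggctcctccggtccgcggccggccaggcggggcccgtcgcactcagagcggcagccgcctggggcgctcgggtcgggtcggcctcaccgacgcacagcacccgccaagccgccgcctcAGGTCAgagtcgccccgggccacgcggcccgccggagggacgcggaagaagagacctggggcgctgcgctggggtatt
Ppard, chr17:28232504-28232803: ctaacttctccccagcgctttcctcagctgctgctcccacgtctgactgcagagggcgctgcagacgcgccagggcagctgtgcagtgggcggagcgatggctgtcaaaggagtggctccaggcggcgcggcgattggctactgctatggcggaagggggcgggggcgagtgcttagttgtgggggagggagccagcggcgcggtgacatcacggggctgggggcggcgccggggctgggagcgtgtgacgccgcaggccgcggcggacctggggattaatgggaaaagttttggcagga
Ppara, chr15:85735526-85735825: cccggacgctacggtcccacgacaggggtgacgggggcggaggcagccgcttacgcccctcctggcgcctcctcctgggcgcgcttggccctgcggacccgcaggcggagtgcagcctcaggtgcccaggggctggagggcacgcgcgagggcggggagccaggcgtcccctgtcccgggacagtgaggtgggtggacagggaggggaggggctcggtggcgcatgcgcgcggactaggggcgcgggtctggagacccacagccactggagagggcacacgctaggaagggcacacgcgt

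The PPARγ2 window lay inside a Foxp4 peak over all of its 300 bp and met no H3K27ac peak. The window at the most upstream start of Pparg lay inside an H3K27ac peak over all of its 300 bp and met no Foxp4 peak. At Ppard 30 bp of the window fell in an H3K27ac peak, and the Ppara window met no peak of either list. The windows differed in composition: G and C made up 40.3% of the PPARγ2 window, which was more than in 10.7% of 32851 tabulated promoters. At the upstream Pparg start this share was 80.3%, at Ppard 68.3% and at Ppara 74.7%, against a median of 52.7% over all windows. The CpG dinucleotide occurred 2 times in the PPARγ2 window, against 44 times at the upstream start. The window of a further Pparg start, 1.2 kb downstream of the first, had 62.7% G and C and began 32 bp past an H3K27ac peak.

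**Figure D1:**
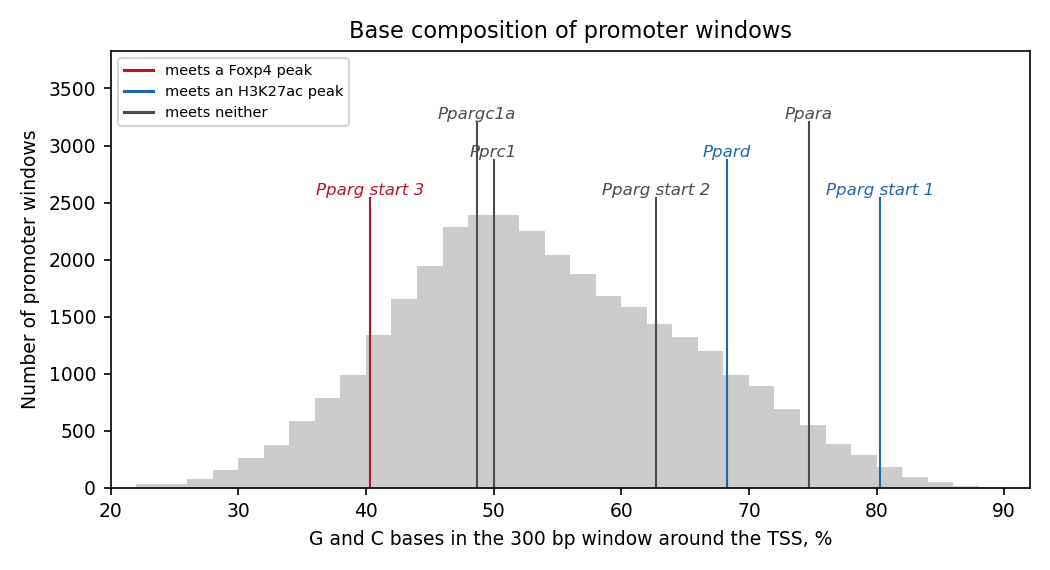
Share of G and C bases in 300 bp promoter windows. Grey bars count all 32851 tabulated windows, and lines mark 7 windows of 5 of the genes, coloured by the peak list they meet. The Pparg window under a Foxp4 peak (start 3, PPARγ2) is at 40.3% and the Pparg window under an H3K27ac peak (start 1) at 80.3%.

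Letter searches of the windows gave few matches. The forkhead sites TGTTTAC and TGTTTGC, searched on both strands, matched none of the 7 windows, while 3.65% and 5.07% of all windows held them. The shorter core TGTTTA, which is part of the first of these and was added after the PPARγ2 window had been read, occurred once there, with its first base at position -120 from the TSS, and in 13.4% of all windows. The nuclear receptor site AGGTCA matched in 3 windows, those of both upstream Pparg starts (positions -28 and -9) and of Pprc1 (position -113), against 16.3% of all windows. The DR1 element of PPARs and RXR was searched only as an exact pair of AGGTCA sites with 1 base between them. It matched none of the 7 and 0.0396% of all windows. A string this rare cannot show whether the 7 windows hold less exact sites.

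Pparg was the gene with the highest-scoring Foxp4 peak of the set. Scores are the authors' own and rank peaks only within a list, where they ran from 20 to 1357 with a median of 27 for Foxp4, and from 20 to 351 with a median of 40 for H3K27ac. The Foxp4 peak at the PPARγ2 start (chr6:115421746-115422131, 386 bp) had a score of 55, and 98.1% of the Foxp4 list scored lower. Its centre lay 128 bp upstream of the TSS. The second Foxp4 peak of Pparg (chr6:115347562-115347848) scored 34 and lay 13.2 kb upstream of an upstream start, in intergenic sequence within an ID4 repeat, a short interspersed element.

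Acetylation at Pparg sat at other positions. The H3K27ac peak at the most upstream start (chr6:115360786-115361349) scored 50, and another of score 23 (chr6:115361714-115362066) had its centre 459 bp before the next start. The last H3K27ac peak, of score 26 (chr6:115476059-115476405), was in an intron, 54.2 kb downstream of the PPARγ2 start. The PPARγ2 start is 60.9 kb from the most upstream one. Around its Foxp4 peak the nearest H3K27ac peaks were 53.9 kb downstream and 59.7 kb upstream. The Foxp4 peak and the H3K27ac peaks at Pparg promoters were thus at separate starts of the gene.

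The other receptor genes had no Foxp4 peak assigned. Ppard, which encodes the widely expressed PPARδ, had an H3K27ac peak of score 92 whose centre lay 362 bp downstream of its TSS in intron 1 (chr17:28232774-28233458), and 94.2% of the list scored lower. A second H3K27ac peak of score 42 and 1034 bp width lay 3.5 kb downstream of the TSS (chr17:28235745-28236778). The Foxp4 peak closest to the TSS of Ppard was 39.0 kb away and was named for Def6. Ppara, the PPAR of liver and brown fat, had no peak of either list within 10 kb of its TSS: the nearest H3K27ac peak was 30.5 kb away and was assigned to the neighbouring Lncppara, a non-coding RNA gene.

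Ppargc1a held 5 of the 7 Foxp4 peaks, while 1.69% of protein-coding genes had 5 or more. That share was matched neither for gene length nor for the length of gene-free sequence around a gene. The annotated span of Ppargc1a is 661.6 kb. Of the 5 peaks, 2 lay in the gene or within 10 kb of it. The peak at its main start (chr5:51553815-51554135, centre 54 bp upstream of the TSS) scored 34, and 62.1% of the list scored lower. A peak of score 24 (chr5:51595462-51595952) lay 28.0 kb upstream of the alternative start, which is itself 13.8 kb upstream of the main one and is known from muscle and fat to answer to adrenergic signals. The remaining 3 lay far beyond the end of the gene, at 258.9, 336.2 and 615.9 kb from the main start, with scores of 41, 21 and 27. Of the list, 85.3%, 1.3% and 25.3% scored lower than these, and 21.2% scored lower than the peak of score 24. The 3 distant peaks were 159.2, 236.5 and 516.2 kb past the annotated span of the gene, with 0 protein-coding genes in between. Their assignment to Ppargc1a rests on distance alone.

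No H3K27ac peak lay at either start of Ppargc1a. The 4 H3K27ac peaks named for it were upstream and were classed as intergenic: at 29.0 kb from the alternative start with a score of 37, and at 232.8, 274.8 and 282.2 kb with scores of 43, 61 and 35. All 4 lie inside the RefSeq span of the gene, which covers 661.6 kb and includes predicted transcripts. A further H3K27ac peak inside that span, of score 47 (chr5:52062611-52062959), was named for the microRNA gene Mir6417. The peak of score 37 (chr5:51596432-51597062) came within 479 bp of the Foxp4 peak of score 24. The pair did not overlap. Over the whole list 5.13% of Foxp4 peaks outside acetylated sequence had an H3K27ac peak within 1000 bp.

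**Figure D2:**
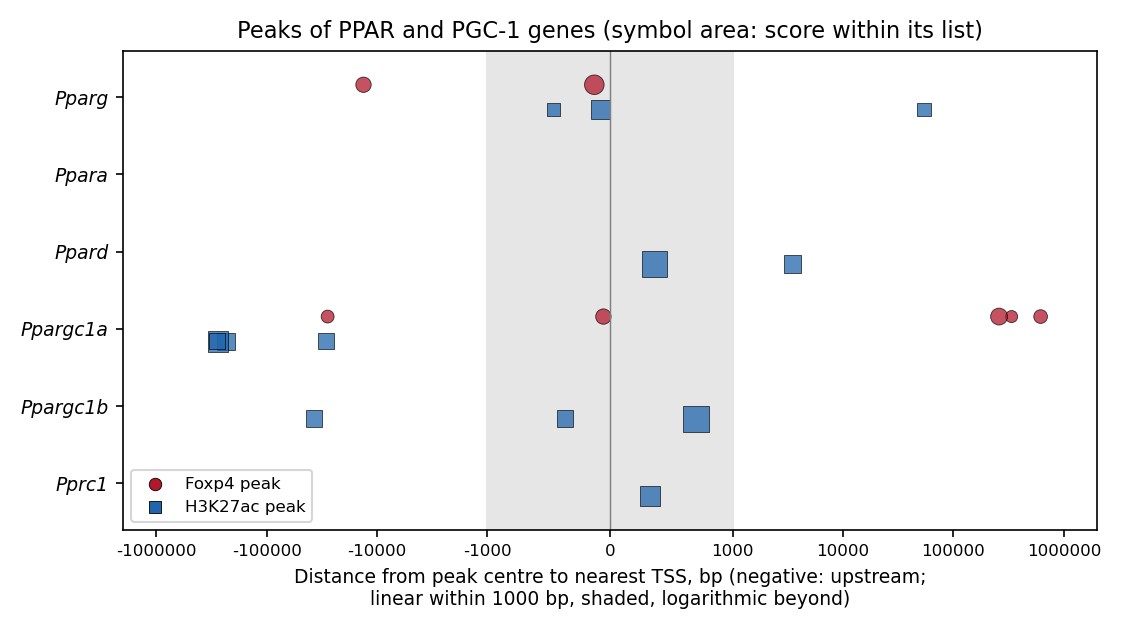
Distance from each peak centre to its nearest TSS for the PPAR and PGC-1 genes, in bp, with Foxp4 peaks as circles above and H3K27ac peaks as squares below, and symbol area proportional to the score. Foxp4 symbols appear in the rows of Pparg and Ppargc1a. H3K27ac symbols lie within 1000 bp of a TSS (shaded) at Pparg, Ppard, Ppargc1b and Pprc1.

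The other coactivator genes had H3K27ac peaks centred within 1000 bp of the TSS, none covering it, and no Foxp4 peak by the deposited names. Pprc1, an early-response relative of PGC-1α, had 1 H3K27ac peak of score 56 in a CpG island of intron 1 (chr19:46056655-46057069), with its centre 323 bp downstream of the TSS. Ppargc1b had the highest H3K27ac score of the set, 98, in a CpG island of intron 1, 698 bp downstream of the TSS (chr18:61399332-61400135). Upstream of the TSS were H3K27ac peaks of score 39 at 369 bp (chr18:61400548-61401053) and of score 40 at 37.1 kb (chr18:61437159-61437954).

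The deposited names hid part of the signal in Ppargc1b. The first intron of this gene contains the microRNA gene Mir378a, which lies 2.5 kb from the Ppargc1b start and whose product regulates fat and mitochondrial metabolism. Peaks nearer to the microRNA were named for it. They include 2 Foxp4 peaks, of score 33 (chr18:61397094-61397441) and score 21 (chr18:61388972-61389318). Of the Foxp4 list 60.9% scored lower than the first and 1.3% lower than the second, whose score was shared by many peaks. There were also 2 H3K27ac peaks, of score 51 (chr18:61397170-61398951) and score 37 (chr18:61352888-61353307). The Foxp4 peak of score 33 shared 272 bp with the H3K27ac peak of score 51, whose centre was 160 bp from the start of Mir378a. With peaks assigned by position, to the annotated gene and 10 kb around it, 4 of the 6 genes had a Foxp4 peak, against 38.1% of protein-coding genes. All 6 then had an H3K27ac peak, against 44.9%. The peaks added at Ppara and Pprc1 lay at promoters of the neighbouring genes Cdpf1 and Nolc1, 4804 and 2782 bp beyond the end of the named genes.

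**Figure D3:**
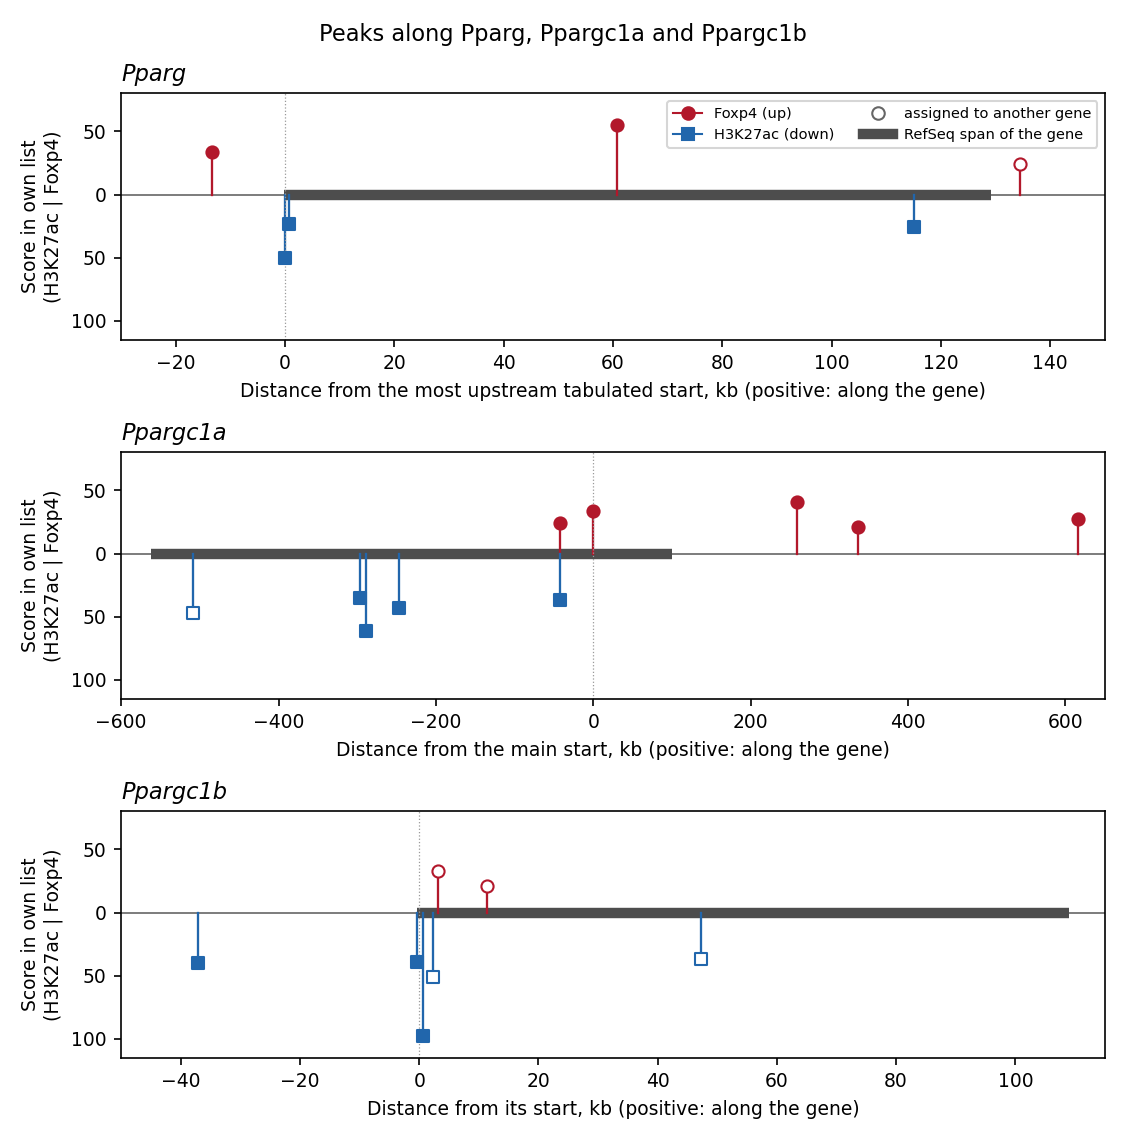
Peaks along Pparg, Ppargc1a and Ppargc1b by distance from a start of each gene, in kb, with Foxp4 scores drawn upward and H3K27ac scores downward; open symbols are peaks named for another gene and the grey bar is the RefSeq span. At Pparg the Foxp4 peak of score 55 stands 60.79 kb from the acetylated start, and at Ppargc1b the Foxp4 peak of score 33 stands beside H3K27ac peaks in the first intron.

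Over the 6 genes, 2 had a Foxp4 peak, against 35.2% of protein-coding genes, and 5 had an H3K27ac peak, against 36%. A Foxp4 promoter peak, with its centre within 1000 bp of the TSS, was present at 2 of 6 genes, against 6.51% of protein-coding genes. An H3K27ac promoter peak was present at 4 of 6, against 25%. The genes with a promoter peak in both lists came to 1, Pparg, at different starts. Since 1 library stands behind each list, no test over samples was possible, and these counts are a description.

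None of the 7 Foxp4 peaks named for the 6 genes overlapped H3K27ac (exact Clopper-Pearson 95% interval 0 to 41.0%, counting error only). In the whole list 8.21% of Foxp4 peaks overlapped H3K27ac by at least 1 bp. Of all Foxp4 promoter peaks 42.3% did, a share to set beside only the 2 promoter peaks here, neither of which overlapped. With 2 peaks that comparison decides nothing. In the other direction 0 of 13 H3K27ac peaks overlapped Foxp4 (interval 0 to 24.7%), against 7.91% of the list. With 0 overlaps both intervals begin at 0 and reach above the shares of the whole lists, 8.21% and 7.91%. They could not have told these genes from the lists, and a difference in overlap was not tested.

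Scores of the 7 Foxp4 peaks ran from 21 to 55 with a median of 34, and 4 were above the median of the list. Of these peaks 5 had a recurrent score, defined as one with 100 or more peaks in the list and over 3 times the peaks of the scores 1 below and 1 above. Recurrent scores were held by 73.1% of the list. The peak at the PPARγ2 start and the one 28.0 kb upstream of the alternative Ppargc1a start were the 2 at other scores, and the main promoter peak of Ppargc1a, at 34, had a recurrent one. Scores of the 13 H3K27ac peaks ran from 23 to 98 with a median of 42, and the 2 highest belonged to Ppargc1b and Ppard. By class, 5 Foxp4 peaks were intergenic and 2 at promoters, and 5 H3K27ac peaks were intergenic, 5 intronic and 3 at promoters.

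**Figure D4:**
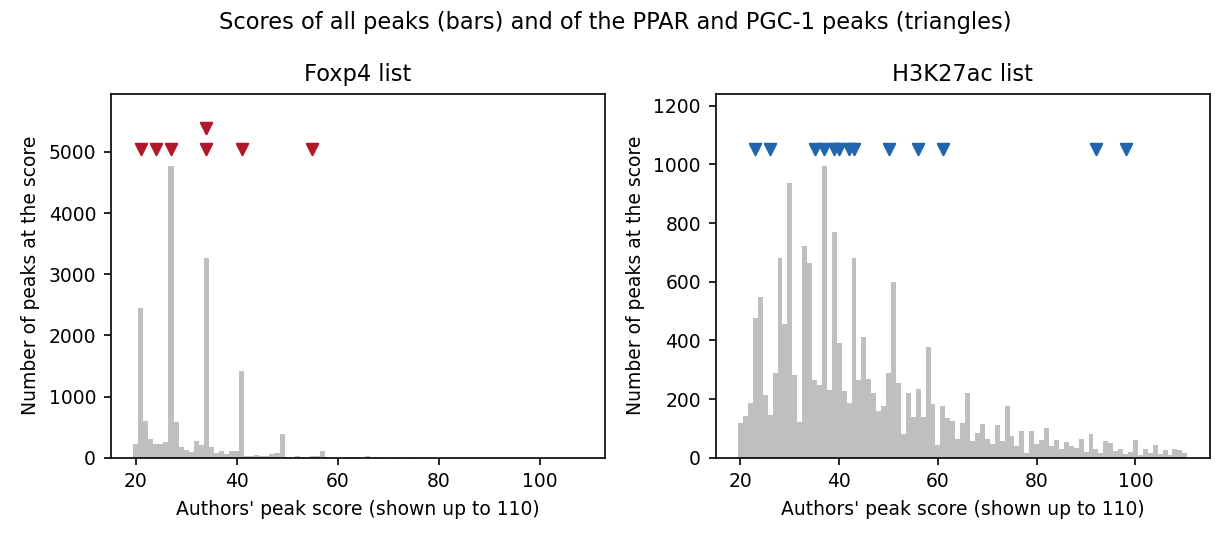
Number of peaks at each score in the Foxp4 list (left) and the H3K27ac list (right), up to a score of 110, with triangles at the scores of the PPAR and PGC-1 peaks. In the Foxp4 list most triangles stand over the tall bars of recurrent scores and the Pparg peak of 55 stands apart. The 2 rightmost H3K27ac triangles are Ppard at 92 and Ppargc1b at 98.

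Genes that work with the PPARs and PGC-1 coactivators were counted in 7 lists of 120 genes. Among them 18 (15.0%) had a Foxp4 promoter peak, 9 of these at a recurrent score, against 6.51% of protein-coding genes. H3K27ac promoter peaks were found at 66 (55.0%), against 25%, and 24 had no peak of either list. The 6.51% was not matched for acetylated promoters, which these lists hold more often. The RXR genes, which encode the heterodimer partners of the PPARs, all 3 had an H3K27ac promoter peak, and Rxrg had a Foxp4 promoter peak of score 22 that overlapped H3K27ac. Of 16 genes listed here as PPAR coactivators 3 had a Foxp4 promoter peak, each overlapping H3K27ac. They were the steroid receptor coactivator genes Ncoa1 (score 92) and Ncoa2 (score 27, a recurrent score) and the acetyltransferase gene Kat2a (score 23). Of 9 corepressor genes, 0 had a Foxp4 promoter peak and 7 had an H3K27ac promoter peak.

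Transcription factors that PGC-1 proteins coactivate had Foxp4 promoter peaks at 2 of 18 genes, against 6.51% of protein-coding genes. They were the lipogenic factor gene Srebf1 (score 35) and the forkhead gene Foxo1 (score 24), both overlapping H3K27ac. An H3K27ac promoter peak was present at 10 of the 18, against 25%. Of 10 mitochondrial transcription genes downstream of PGC-1, 1 had an H3K27ac promoter peak, against 25%. A Foxp4 promoter peak was present at 2, against 6.51%. The Foxp4 promoter peaks of Polrmt, the mitochondrial RNA polymerase gene (score 30), and Tfam, a packaging factor of mitochondrial DNA (score 23), lay outside H3K27ac peaks.

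Among PPAR target genes, 6 of 34 storage and adipocyte genes had a Foxp4 promoter peak, against 6.51% of protein-coding genes. An H3K27ac promoter peak was present at 19, against 25%. The lipase genes Lipe and Mgll (score 41 each) and the lipid droplet gene Plin1 (score 34) had the highest-scoring ones that overlapped H3K27ac, and the acetate-activating enzyme gene Acss2 (score 27) had one outside. Of 30 oxidation genes 4 had a Foxp4 promoter peak and 14 an H3K27ac promoter peak, against the same 6.51% and 25%. Recurrent scores were held by 4 of the 6 storage promoter peaks and by 4 of the 4 oxidation ones, against 73.1% of all Foxp4 peaks. Without such scores 2 storage genes and 0 oxidation genes had a Foxp4 promoter peak. The share of all genes without such scores was not computed. The oxidation promoter peaks that overlapped H3K27ac were at the carnitine palmitoyltransferase gene Cpt2 (score 41), the peroxisomal thiolase gene Acaa1a (score 41) and the peroxisome division gene Pex11a (score 34). That of Cpt1b (score 27) was outside. At Acaa1a, which has 0 H3K27ac peaks of its own name, the overlapping peak was named for another gene. Over all 120 genes 27 of 142 Foxp4 peaks overlapped H3K27ac, a larger share than the 8.21% of the whole list; this difference was not tested.

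**Figure D5:**
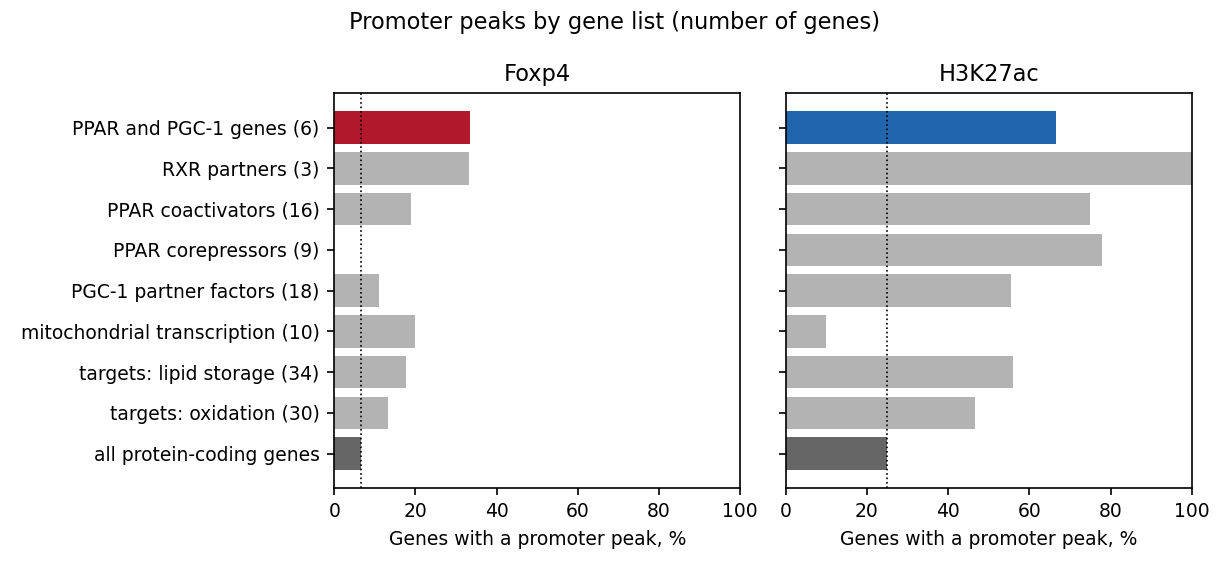
Share of genes with a Foxp4 promoter peak (left) and an H3K27ac promoter peak (right) in the PPAR and PGC-1 set, in 7 lists of partner and target genes and in all protein-coding genes (dotted line). The 6 genes stand at 2 with Foxp4 and 4 with H3K27ac; the mitochondrial transcription list has the lowest H3K27ac share, 1 of 10.

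By the number of Foxp4 peaks and of those overlapping H3K27ac, the only 1 of the 120 list genes that matched Ppargc1a, with 5 and 0, was the PPARγ coactivator gene Tle3. At the promoter they differed: Ppargc1a had 1 Foxp4 peak and 0 H3K27ac peaks there, whereas Tle3 had 0 Foxp4 peaks and an H3K27ac peak of score 132. The counts of Pparg, 2 and 0, were shared by 13 genes, of which Acsl1, Carm1, Ep300, Esrrg and Lpin1 come first in the alphabet. These 5 had 0 Foxp4 promoter peaks. Of the 13, the 2 that like Pparg had a Foxp4 promoter peak were Polrmt and Tfam, named here after their values were seen.

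As a check of the cells, 5 of 6 adipocyte markers and 3 of 7 beige and brown fat markers had an H3K27ac peak, against 36% of protein-coding genes, and Adipoq, Ucp1, Cidea, Dio2 and Prdm16 had none. At the promoter 4 of 6 adipocyte and 1 of 7 beige and brown fat markers had such a peak, against 25%. The beige and brown share is close to the background for any peak and below it at the promoter. Preadipocyte markers with an H3K27ac peak were 4 of 5 (2 at the promoter), macrophage markers 2 of 3 (1 at the promoter), endothelial markers 3 of 3 (0 at the promoter) and skeletal muscle markers 0 of 3. The part of other cells in the peaks described here was not tested. Depth is unknown from peak lists, so a gene without a peak is a gene where none was called in these libraries.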

How the data were processed

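Peak lists of a Foxp4 and an H3K27ac ChIP-seq library were analysed. The submitters' processing notes list Bowtie2, Picard, SAMtools, MACS2, deepTools 3.3.0 and the build mm10. Per the file headers, HOMER annotatePeaks.pl assigned each peak of a narrowPeak list the nearest RefSeq TSS, a class and a signed distance. The score of each peak is the authors' deposited whole number, on a scale not given in the sources used here. The use of the input and the calling threshold are likewise not given, depth is unknown, and scores served to rank peaks inside a list.

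Autosomal, X and Y peaks entered, which left out 1 mitochondrial Foxp4 peak. Overlap meant at least 1 shared bp. Backgrounds are the protein-coding genes of RefSeq GRCm38.p6 matched by Entrez identifier, and 32851 RefSeq promoter windows. Promoter sequences matched for 5 of the 6 genes; that of Ppargc1b was not used here, and the main start of Ppargc1a is not among the windows used here. The genes and lists were chosen with earlier results of these data known. Named list genes were those with a Foxp4 promoter peak inside H3K27ac (up to 3 by score) or outside (up to 2), and those sharing the peak counts of Pparg or Ppargc1a (up to 5); 1 gene that this rule names is not reported here. Alternatives covered peak assignment, score, promoter window, overlap rule and recurrent scores. Overlap code was tested on simulated data. Scripts ran in Python 3.11.15 with scipy 1.17.1, pandas 2.3.3 and numpy 2.4.6; figures were drawn with matplotlib 3.10.9.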

Additional observations from a re-analysis of the deposited data

How the results depend on the processing

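Counts of a few peaks move easily with the rules. With lower-scoring peaks dropped, leaving 50% of each list, the 6 genes had 4 Foxp4 peaks in place of 7 and 7 H3K27ac peaks in place of 13. Both counts are near the 50% kept of each list. Foxp4 peaks tied at the median score of 27 were kept or dropped by chromosome and position. Without recurrent scores, held by 73.1% of the Foxp4 list, 2 Foxp4 peaks were left, and 1 gene, Pparg, had a Foxp4 promoter peak. By the authors' narrower promoter class 2 genes had an H3K27ac promoter peak, since the peaks at Ppard and Pprc1 are classed as intronic. Counting an H3K27ac peak within 1000 bp as overlap gave 1 of 7 Foxp4 peaks, at Ppargc1a. Overlap among peaks assigned by position, an alternative chosen after seeing the data, was also 1 of 7, the peak in Ppargc1b named for Mir378a. The other 11 of 18 alternative values stayed within 1.5 times the reported ones, among them 0 overlapping Foxp4 peaks under 50% coverage and under the centre rule. No paired analysis was possible because each list comes from 1 library. Depth cannot be read from peak lists and limits every absence.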

Other observations

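Upstream of Ppara, which has no peak of its own, the non-coding RNA gene Lncppara carried 17 H3K27ac peaks and 0 Foxp4 peaks. Their scores ran from 27 to 160, they covered 26.2 kb, and their centres lay 31.3 to 89.8 kb upstream of the Ppara TSS. Of 8997 gene names with an H3K27ac peak, 15 (0.167%) had as many or more. The peaks took the name of the nearest start, up to 57.8 kb away. This share was not matched for the spacing of genes, and Lncppara was not among the genes chosen beforehand.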
